A study of Homo sapiens with 72 samples.

Results

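The 6 libraries described here compared endocervical with vaginal epithelial cells that received neither polyamines nor bacteria. They were chosen by their labels: all 3 non-treated, unexposed libraries (NT+noGV) of the endocervical line (Endo) and all 3 of the vaginal line (VK2), 6 of the 72 libraries of the series. Endo is End1/E6E7 and VK2 is VK2/E6E7, human epithelial lines that were immortalized with the E6 and E7 genes of a human papillomavirus. Both grew in the same serum-free keratinocyte medium, so all 6 libraries share the viral oncogenes and the culture conditions. The rest of the series adds an ectocervical line, Ect/E6E7 (Ecto), and 2 treatments. Cells were pretreated for 4 h with 4 mM putrescine (PUT), 400 µM spermidine (SPD) or 400 µM spermine (SPM), and the bacterium was live G. vaginalis (GV) at 10000000 CFU in each well for 24 h. Each tissue is represented by 1 line, so the site of origin, the donor and the history of the line in culture cannot be told apart. Neither the labels nor the study's methods say that the 3 replicates were separate cultures, and errors and p-values measure the spread between these libraries only.

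In the body, the endocervical canal is lined by a simple columnar epithelium that secretes mucus, and the vagina by a stratified squamous epithelium. Simple epithelia build their filaments from keratins 7, 8, 18 and 19. Basal squamous cells use keratins 5 and 14, carry the transcription factor TP63, and sit on a basement membrane of laminins, collagens and nidogens. The comparison asks which of these features the unexposed lines had.

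Stranded total RNA depleted of ribosomal RNA was sequenced, and levels are given as CPM, counts per 1000000 counts of a normalised library. Library totals ran from 28169807 to 35599053 counts, so 3 counts in a library correspond to 0.09 to 0.115 CPM. The root mean square distance between libraries, in log2 CPM over the genes tested, was 0.214 to 0.231 within a line and 0.891 to 0.903 between Endo and VK2. No library stood apart from its group. Chi-square per degree of freedom between replicates was 2.44 to 4.63, above counting noise, so none is a copy of another.

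Both lines carried epithelial and squamous markers, and Endo lacked the defining products of columnar endocervical cells. Of 10 squamous markers, 8 were at 1 CPM or more in every Endo library and 9 in every VK2 library. TP63, the master regulator of stratified epithelia, stood at 366, 332 and 362 CPM in the 3 Endo libraries and at 325, 312 and 313 CPM in the 3 VK2 libraries. Of 10 columnar markers, 6 reached 1 CPM in every Endo library and 5 in every VK2 library. The gel-forming mucin MUC5B was at 0.037, 0 and 0.0644 CPM in Endo and 0 in VK2, MUC5AC was at 0 in every Endo library, and the mucus-associated peptide TFF3 was at 0 in all 6 libraries. The cells are therefore called the Endo line here, not mucus-producing endocervical epithelium. The adhesion molecule EPCAM was at 118, 118 and 114 CPM in Endo and 136, 132 and 123 CPM in VK2, and CDH1, epithelial cadherin, at 622, 654 and 635 CPM in Endo and 507, 532 and 525 CPM in VK2.

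The keratins separated the lines more than any of these. KRT7 (ENSG00000135480.17; GRCh38 chromosome 12, 52232520 to 52252186), the simple-epithelium keratin used to mark glandular cells, read 1389, 1509.8 and 1364 CPM in Endo and 2.01, 2.14 and 1.71 CPM in VK2. The groups did not overlap, and the log2 fold change (Endo minus VK2, as throughout) was 9.49 ± 0.06 (± SE here and below, edgeR quasi-likelihood adjusted p 5.1e-22, n = 3 per line). Ecto cells held 14.3 CPM of it. KRT14 (chromosome 17, 41582279 to 41586895), the keratin of basal squamous cells, went the other way: 399, 421 and 419 CPM in Endo against 7258, 6967 and 7371 CPM in VK2 (log2 fold change -4.15 ± 0.04, adjusted p 9.7e-21), with 98.9 CPM in Ecto. Its usual partner KRT5 was abundant in both, at 12565, 13076 and 12889.8 CPM in Endo and 17962, 17769.8 and 17985 CPM in VK2, a log2 difference of -0.5 ± 0.03 that lay below the fold threshold. KRT8 and KRT18, partners of KRT7 and KRT19 in simple epithelia, were lower in Endo. KRT8 read 119, 122 and 117 CPM in Endo and 427, 447 and 447 CPM in VK2, and KRT18 204, 212 and 207 CPM in Endo and 507, 518 and 513 CPM in VK2 (log2 fold changes -1.91 and -1.33). Their annotated spans overlap on chromosome 12 and both have many processed pseudogene copies, so their counts are less certain than that of KRT7. KRT19 was higher in Endo by 0.69 on the log2 scale, again under the threshold.

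**Figure D1:**
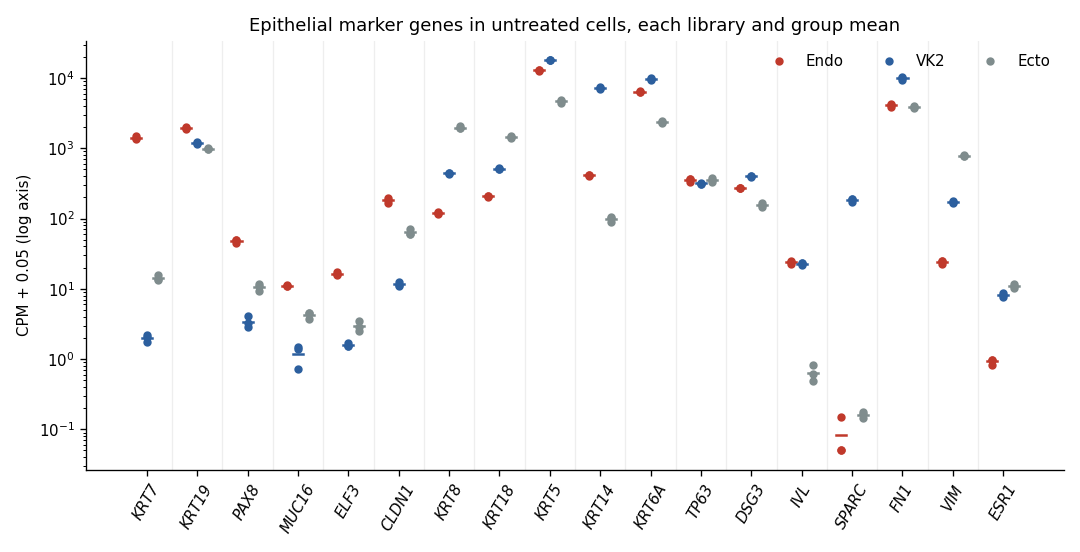
CPM plus 0.05 on a log axis for 18 genes, with 1 point per library and a bar at each group mean, in Endo, VK2 and Ecto cells without treatment (3 libraries each). KRT7, PAX8, MUC16, ELF3 and CLDN1 sit highest in Endo and KRT14 and SPARC highest in VK2, while the TP63 points of the 3 lines lie between 312 and 378 CPM.

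Across the transcriptome, 16676 genes passed the filter on low counts and 3408 of them (20.4%) were called different, at an adjusted p under 0.05 with a log2 fold change of at least 1 in size. Calls were split evenly, with 1719 genes (10.3% of those tested) higher in Endo and 1689 (10.1%) higher in VK2. The median log2 fold change of all genes tested was 0.00496. Without the fold threshold 5941 and 5977 genes passed, 71.5% of those tested, and the common biological coefficient of variation was 0.0396. Protein-coding genes were called in 18.1% of cases and long non-coding RNA genes in 30.8%, and of the latter 477 were higher in Endo and 266 in VK2. 735 genes were called with a log2 fold change of at least 3 in size.

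**Figure D2:**
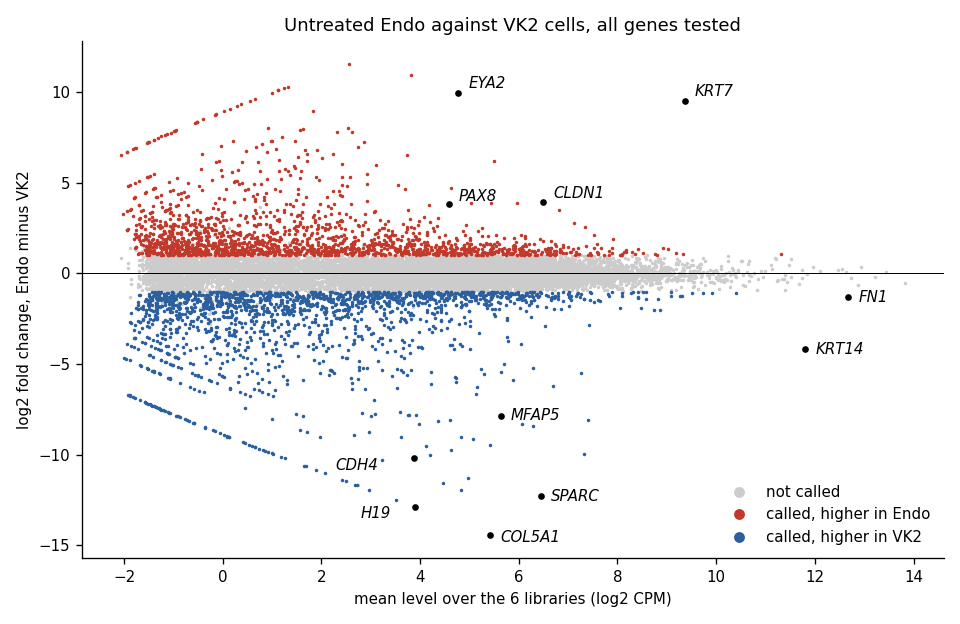
Log2 fold change (Endo minus VK2) against the mean level over the 6 libraries (log2 CPM) for the genes tested, with called genes in colour and 11 genes named. Called genes spread over the whole range of levels, and the rows of points at the left edge are genes without counts in one line.

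Among protein-coding genes with a mean of at least 5 CPM, the largest differences were near presence or absence. On the Endo side, EYA2, a transcriptional coactivator with phosphatase activity, read 57.6, 61.1 and 58.4 CPM in Endo, and 0.06, 0.115 and 0 CPM in VK2, 1090.4-fold (95% counting interval 467 to 3359.7) higher. FOXL2, a forkhead factor of the ovary and the female reproductive tract, was at 14.3, 14 and 14.3 CPM in Endo and 0.09, 0.153 and 0.0915 CPM in VK2. Both neuronal and endothelial nitric oxide synthases were on this side: NOS1 was at 18.4 against 0.286 CPM and NOS3 at 16 against 0.352 CPM. PNMA8A was 2819-fold (95% counting interval 506 to 111386) higher in Endo. The other Endo genes of this ranking were KRT7, SLC15A3 (a peptide and histidine transporter), EPB41L4A, PHYHIPL, PCDHGB5, NEFH (the heavy neurofilament subunit), RNF165, CAMK1D and CAMK4. Their log2 fold changes lay between 4.95 and 9.49.

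On the VK2 side, COL5A1 (ENSG00000130635.17; chromosome 9, 134641803 to 134844843), the chain that starts collagen V fibrils, read 90.5, 93.8 and 86.4 CPM in VK2 and 0 counts in every Endo library, and was at least 878-fold higher in VK2. SPARC, a matrix glycoprotein that binds collagen, read 173, 190.37 and 191 CPM in VK2 and 0, 0.101 and 0 CPM in Endo, 5397-fold (95% counting interval 1846 to 26172) higher in VK2. CALML3, a calmodulin-like protein of squamous epithelium, was at 332, 337 and 339.60 CPM in VK2 and 0.296, 0.504 and 0.225 CPM in Endo. The prostaglandin transporter SLCO2A1 was at 23.7, 24.9 and 22.5 CPM in VK2 and 0 in Endo, and CDH4, retinal cadherin, at 30.4, 31.5 and 30.02 CPM in VK2 with 0, 0 and 0.0644 CPM in Endo. The neighbouring homeobox genes IRX1 and IRX2 were both on the list, at 11.7 and 46.2 CPM in VK2 and at no more than 1 count over the 3 Endo libraries. CADM1, PRSS21, SLC44A5, MT1E, ZFP42, SLC8A2 and QPRT were also on it. Ecto cells did not follow either line as a block, since QPRT, IRX2 and MT1E were present there (148, 51.2 and 132 CPM) and COL5A1, SPARC and CADM1 were at 0.166, 0.112 and 0.0126 CPM. MT1E belongs to a family of near-identical metallothionein genes, and its count depends on how shared reads were divided.

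By difference in mean CPM, a scale that is not per gene length, the largest surpluses of Endo over VK2 among protein-coding genes were in MT-ND4, EEF2, FASN (fatty acid synthase), DSP (desmoplakin), KRT7, KRT17, MT-CO3, GAPDH, MT-CO1 and THBS1. Those of VK2 over Endo were in KRT14, FN1, KRT5, KRT6A, FTH1, LAMA3, EEF1A1, ACTB and TPT1. Of these KRT7, EEF2, KRT14, FN1 and TPT1 passed the fold threshold, and the others differed by less than 2-fold. KRT17 and KRT6A share long stretches with paralogues, so their counts are less certain.

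The stretches of 250 bases just before the RefSeq start sites (GRCh38.p14) are shown for 4 genes that the results turn on, with each CG dinucleotide in capitals, because promoters of epithelial genes range from CG-poor to CG-rich. PAX8 and CLDN1 were higher in Endo and COL5A1 and CALML3 in VK2. Coordinates are chromosome, start and end, and each sequence is written 5′ to 3′ on the strand of the gene.
PAX8, chr2:113278922-113279171, strand -: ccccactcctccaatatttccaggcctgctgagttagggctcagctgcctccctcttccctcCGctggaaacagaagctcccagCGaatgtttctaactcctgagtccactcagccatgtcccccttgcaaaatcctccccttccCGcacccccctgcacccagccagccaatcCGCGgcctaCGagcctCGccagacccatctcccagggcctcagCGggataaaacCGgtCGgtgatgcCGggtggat
CLDN1, chr3:190322447-190322696, strand -: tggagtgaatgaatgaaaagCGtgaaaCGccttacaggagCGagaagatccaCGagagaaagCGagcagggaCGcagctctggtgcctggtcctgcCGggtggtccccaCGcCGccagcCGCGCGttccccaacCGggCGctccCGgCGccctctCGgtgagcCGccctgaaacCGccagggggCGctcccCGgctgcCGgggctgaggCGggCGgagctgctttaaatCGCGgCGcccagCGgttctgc
COL5A1, chr9:134641553-134641802, strand +: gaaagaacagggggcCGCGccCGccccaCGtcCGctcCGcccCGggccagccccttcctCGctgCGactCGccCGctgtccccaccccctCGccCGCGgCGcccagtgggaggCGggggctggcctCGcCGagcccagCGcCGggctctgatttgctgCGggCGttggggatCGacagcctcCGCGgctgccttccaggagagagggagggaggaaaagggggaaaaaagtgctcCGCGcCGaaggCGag
CALML3, chr10:5524711-5524960, strand +: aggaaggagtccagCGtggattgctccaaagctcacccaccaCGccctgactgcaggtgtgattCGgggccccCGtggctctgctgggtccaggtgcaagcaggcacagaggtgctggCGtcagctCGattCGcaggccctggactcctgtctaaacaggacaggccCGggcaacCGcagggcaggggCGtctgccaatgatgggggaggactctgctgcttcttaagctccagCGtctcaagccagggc
They hold 11, 28, 29 and 11 CG dinucleotides, so the genes of either line included a CG-rich and a CG-poor promoter. Over whole RefSeq windows (250 bases before to 50 after the start), 10892 of 13583 protein-coding genes tested were matched by symbol, and their median was 26 CG dinucleotides. It was 24 for the 866 matched genes called higher in Endo and 22 for the 990 called higher in VK2. The letters TATAAA on either strand were found in 5.95% of all windows, in 12% of those of genes higher in Endo and in 8.89% of those higher in VK2. Fewer than 80% of the called genes could be matched, so these shares do not describe all called genes.

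Matrix genes that differed were mostly higher in VK2. Of 59 matrix genes tested, 28 were called higher in VK2 and 5 higher in Endo (47.5% and 8.47%, beside 10.1% and 10.3% of all genes), with a median log2 fold change of -0.92. FN1, fibronectin, was at 4123, 4314 and 3929 CPM in Endo and 9353, 10015 and 10184 CPM in VK2 (log2 fold change -1.28 ± 0.04). The elastic fibre component MFAP5 read 0.444, 0.336 and 0.547 CPM in Endo and 100.39, 105 and 107 CPM in VK2 (-7.88 ± 0.09), and the fibrillin FBN2 16.1, 17.4 and 16.2 CPM in Endo and 94, 101 and 101 CPM in VK2. Biglycan (BGN), the proteoglycan versican (VCAN) and the collagen COL8A1 were lower in Endo with log2 fold changes of -3.94, -2.91 and -3.89.

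Basement membrane components were divided between the lines. VK2 held more LAMA1 (36.2 against 3.85 CPM), NID1 (135 against 25.7 CPM) and the heparan sulfate proteoglycan HSPG2 (314 against 110.07 CPM). LAMA3 and LAMB3, chains of the laminin that anchors squamous epithelium, differed by -0.92 and -0.09, under the threshold. Over the whole matrix list, which is wider than basement membrane genes, 5 were called higher in Endo. NID2, the second nidogen, was at 14.2, 15.3 and 16.6 CPM in Endo and 0.69, 1.15 and 1.04 CPM in VK2 (4 ± 0.13). The others were COL7A1, the collagen of anchoring fibrils (1.33), COL12A1 (1.64), COL18A1 (1.15) and CCN2 (1.27).

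Some markers of stromal cells were also higher in VK2, while others were near 0 or not higher there. Few of the listed markers passed the filter, so the shares below rest on small numbers. Of 12 fibroblast markers 5 passed the filter and 4 of these were higher in VK2 (80%, beside 10.1% of all genes). They were PDPN (5.49 against 43.3 CPM), FAP (1.46 against 24.6 CPM), DCN and THY1, the last pair under 1.2 CPM in every library. The summed list stood at 36.5 to 40.4 CPM in Endo and 94.2 to 97.8 CPM in VK2. COL3A1, a defining fibroblast collagen, was at no more than 0.0336 CPM in any library, COL1A2 at no more than 0.337 CPM on average in VK2, and COL1A1 was not higher in VK2 (31.4 against 25 CPM). VIM, vimentin, read 24.6, 24.4 and 22.4 CPM in Endo, 167, 180.25 and 169.54 CPM in VK2 and 780.03 CPM on average in Ecto. Of 8 smooth muscle markers 4 passed the filter, and CNN1, TAGLN and SMTN were higher in VK2 (75% of those tested). That list summed to 44.9 to 51.1 CPM in Endo and 157 to 167 CPM in VK2, most of it SMTN, which epithelia share, while MYH11 and DES stayed under 0.2 CPM on average. Of 12 leukocyte markers 2 passed, CD68 (-0.93, not called) and CSF1R, which was higher in VK2 (-2.8), 50% of those tested. The list summed to 39 to 43.1 CPM in Endo and 78.9 to 83.8 CPM in VK2, and the pan-leukocyte gene PTPRC was at 0.0347 and 0.0227 CPM. The part of other cell types in the matrix difference was not tested, and in bulk RNA fewer cells of a type cannot be told apart from less RNA per cell.

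Metalloproteinase and inhibitor genes that differed were, like matrix genes, mostly higher in VK2. Of 17 metalloproteinase and inhibitor genes tested, 8 were higher in VK2 and 2 in Endo (47.1% and 11.8%, beside 10.1% and 10.3% of all genes), so the Endo share is near that of all genes. MMP9, gelatinase B, read 1, 1.18 and 0.933 CPM in Endo and 25, 24.1 and 24.2 CPM in VK2 (-4.58 ± 0.1), and MMP2, gelatinase A, 0.259, 0.168 and 0.29 CPM in Endo and 12.9, 13.7 and 14 CPM in VK2 (-5.82 ± 0.15). The stromelysin MMP3 and the collagenase MMP1 were also higher in VK2 (-5.14 and -2.18), as was the inhibitor TIMP3 (256 against 517 CPM). MMP10, which lies beside MMP1 and MMP3 on chromosome 11, had the opposite sign, with 18.2, 16.9 and 17.9 CPM in Endo and 5.31, 5.27 and 5.34 CPM in VK2 (1.71 ± 0.08). Kallikreins, proteases that shed squamous cells, were centred near 0, with a median of 0.01. Of 13 tested, 4 were higher in VK2 and 1 in Endo (30.8% and 7.69%), and 8 were not called. KLK5 read 4.67, 4.06 and 4.6 CPM in Endo and 152, 157 and 170.39 CPM in VK2 (-5.19 ± 0.07). Its inhibitor SPINK5 was higher in Endo, at 31.7 against 6.3 CPM (2.3 ± 0.07).

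**Figure D3:**
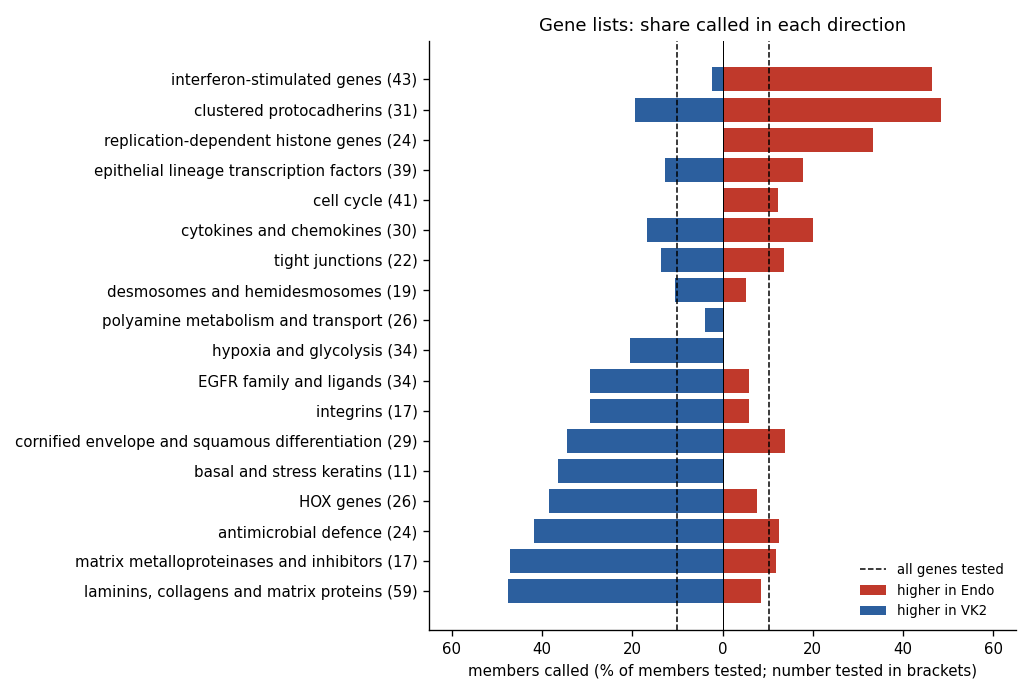
Members called in each direction as a percentage of the members tested, for 18 gene lists with the number tested in brackets; bars to the right are genes higher in Endo, bars to the left genes higher in VK2, and dashed lines mark the shares over all genes tested (10.3% and 10.1%). Interferon-stimulated genes reach 46.5% on the Endo side and matrix genes 47.5% on the VK2 side.

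Interferon-stimulated genes, which cells switch on after sensing viral nucleic acid, were higher in Endo in all but 1 of the members called. Of 43 tested, 20 were called higher in Endo (46.5% beside 10.3% of all genes) and 1 higher in VK2, with a median log2 fold change of 0.84. RSAD2, the antiviral enzyme viperin, read 26.1, 24.6 and 29.8 CPM in Endo and 1.05, 1.03 and 1.04 CPM in VK2 (4.66 ± 0.11, adjusted p 2.1e-15). IFI27 read 46.2, 54.6 and 53.5 CPM in Endo and 1.68, 1.95 and 2.2 CPM in VK2 (4.7 ± 0.09), and XAF1, a promoter of apoptosis, 1.89, 2.96 and 2.99 CPM in Endo and 0.06, 0.0382 and 0.122 CPM in VK2 (5.01 ± 0.36). DDX60, a helicase that assists RNA sensing, was at 299 against 50.6 CPM, OASL at 115 against 26.4 CPM and the ubiquitin-like ISG15 at 191 against 63.3 CPM. IFIT1, IFIT2 and IFIT3, which bind foreign RNA, differed by 1.19, 1.24 and 1.07. The list did not move as a block. OAS1, which makes the activator of RNase L, was at 21.4, 22.9 and 24.6 CPM in Endo and 22.2, 20.3 and 24 CPM in VK2. OAS1 differed by 0.02 and IFI6 by 0.12, and MX2 was the gene called higher in VK2 (-1.81).

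Antimicrobial defence genes that differed were mostly higher in VK2. Of 24 antimicrobial genes tested, 10 were higher in VK2 and 3 in Endo (41.7% and 12.5%, beside 10.1% and 10.3% of all genes), the Endo share again being near the background. S100A9, a subunit of the zinc-binding protein calprotectin, read 3.85, 4.43 and 3.99 CPM in Endo and 51.8, 47.2 and 50.8 CPM in VK2 (-3.63 ± 0.07, adjusted p 9.8e-17), and its partner S100A8 1.44, 1.54 and 1.54 CPM in Endo and 17.2, 18 and 17.2 CPM in VK2 (-3.55 ± 0.09). Psoriasin (S100A7), the elastase inhibitor PI3 and complement C3 followed with -4.02, -2.25 and -3.16. SLPI, a protease inhibitor of genital tract secretions, differed by 0.15. The 3 genes higher in Endo were LCN2 (1.5), C1R (1.02) and CLU (1.72), of which C1R fell under the threshold without Endo replicate 3 (0.93) or VK2 replicate 3 (0.98). The protein-coding genes in their 10 Mb windows tended to be higher in Endo too (window medians 0.52, 0.48 and 0.75).

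Cytokine genes were split. Of 30 tested, 6 were higher in Endo and 5 in VK2 (20% and 16.7%, beside 10.3% and 10.1% of all genes), around a median of 0.05. The neutrophil chemokine CXCL2 read 36, 31.9 and 36.5 CPM in Endo and 5.1, 4.66 and 4.82 CPM in VK2 (2.81 ± 0.08), and CXCL8, interleukin-8, 7.89, 7.36 and 9.11 CPM in Endo and 3.81, 3.59 and 3.72 CPM in VK2 (1.1 ± 0.11). CCL20, which attracts dendritic and Th17 cells, was at 1.63, 2.05 and 2.51 CPM in Endo and 0.72, 0.496 and 0.641 CPM in VK2 (1.7 ± 0.24), and TSLP, LIF and TNFSF10 were higher in Endo too. IL1B read 41.5, 40.5 and 40.6 CPM in Endo and 95.3, 95.9 and 98.1 CPM in VK2 (-1.26 ± 0.04), and IL24, IL23A, CSF3 and CXCL14 were also higher in VK2, with no Endo library above 0.5 CPM for any of these 4. Of 21 Toll-like receptor and adaptor genes tested, 3 were higher in Endo and 4 in VK2 (14.3% and 19%, beside 10.3% and 10.1% of all genes), and 14 were not called. Among sensors, the double-stranded RNA receptor TLR3 was higher in Endo (9.63 against 3.44 CPM, 1.46 ± 0.09). The peptidoglycan sensor NOD2 was higher in VK2 (2.66 against 6.82 CPM, -1.38 ± 0.11). TLR2, the receptor for bacterial lipoproteins, differed by 0.68, under the threshold.

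Transcription factors of epithelial lineages differed in both directions. Of 39 tested, 7 were higher in Endo and 5 in VK2 (17.9% and 12.8%, beside 10.3% and 10.1% of all genes), and 27 were not called. The VK2 share is near that of all genes. PAX8, a factor of Müllerian duct derivatives, read 50.2, 44.7 and 50.2 CPM in Endo and 3.21, 2.83 and 4 CPM in VK2 (3.81 ± 0.1, adjusted p 5.1e-13). ELF3, an epithelial ETS factor, was at 15.7, 16.2 and 17.2 CPM in Endo and 1.5, 1.64 and 1.46 CPM in VK2 (3.39 ± 0.1), and MEIS1 and MEIS2, cofactors of HOX proteins, differed by 1.72 and 5.21. The factors higher in VK2 were SOX2 (-2.97 ± 0.27), FOXN1 (-2.62 ± 0.17), GATA3 (-2.87 ± 0.14), TBX3 (-1.7) and EHF (-1.08), of which EHF lies in a chromosome 11 window whose protein-coding genes had a median of -1.1. MUC16, the cell-surface mucin also known as CA125, was higher in Endo, at 10.8, 11 and 11.3 CPM against 0.66, 1.41 and 1.34 CPM (3.27 ± 0.17). The median of its window on chromosome 19 was 0.88. MUC16 was the only member of its list called on the Endo side. Of 11 mucin and glandular product genes tested, 1 was higher in Endo and 4 in VK2 (9.09% and 36.4%, beside 10.3% and 10.1% of all genes). The list summed to 58.8 to 62.9 CPM in Endo and 133 to 137 CPM in VK2.

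HOX genes, whose order in a cluster follows the body axis, were for the most part higher in VK2 where they differed. Of 26 tested, 10 were higher in VK2 and 2 in Endo (38.5% and 7.69%, beside 10.1% and 10.3% of all genes). HOXA9 read 10.5, 10.3 and 9.3 CPM in Endo and 50.4, 54.2 and 52.4 CPM in VK2 (-2.41 ± 0.06), HOXA10 0.185, 0.336 and 0.161 CPM in Endo and 9.72, 8.71 and 8.79 CPM in VK2 (-5.32 ± 0.18), and HOXA11 1.67, 2.22 and 1.29 CPM in Endo and 7.77, 9.32 and 7.51 CPM in VK2 (-2.27 ± 0.16). HOXA13, the next of the cluster, did not pass the filter and was at 0 in Endo and 0.21, 0.267 and 0.0915 CPM in VK2. In the HOXC cluster HOXC10 was at 3.81, 4.09 and 4.21 CPM in VK2 and 0 in Endo (at least 39.3-fold higher in VK2), and HOXC8, HOXC9 and HOXC13 were higher in VK2 with Endo levels under 0.1 CPM. HOXD9 and HOXB6 were the exceptions (3.21 and 1.27). Ecto cells held HOXA9, HOXA10 and HOXA11 at 35.3, 7.49 and 6.68 CPM.

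Sex steroid receptors were low in both lines. ESR1, oestrogen receptor alpha, read 0.926, 0.772 and 0.933 CPM in Endo and 8.13, 8.59 and 7.63 CPM in VK2 (-3.23 ± 0.13), and ESR2 0.333, 0.202 and 0.129 CPM in Endo and 3.09, 2.21 and 2.84 CPM in VK2 (-3.65 ± 0.29). The progesterone receptor PGR was at 0 in all 6 libraries, while the glucocorticoid receptor NR3C1 was at 149 and 137 CPM.

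Cell contact genes differed in a few strong members. CLDN1, the claudin that seals squamous epithelium, read 185, 169 and 196 CPM in Endo and 12.4, 11.3 and 10.7 CPM in VK2 (3.97 ± 0.08, adjusted p 3.1e-11). Among 22 tight junction genes tested, 3 were higher in Endo and 3 in VK2 (13.6% each way, near the 10.3% and 10.1% of all genes), and CLDN7, OCLN and TJP1 differed by 0.75, 0.63 and -0.17. Of 19 desmosome and hemidesmosome genes tested, 1 was higher in Endo and 2 in VK2 (5.26% and 10.5%), no more than about the shares over all genes. PKP2 was higher in Endo (1.38) and PKP3 and CD151 in VK2 (-1.49 and -1.02). All 3 of these lie in windows whose median had the same sign (0.73, -1.02 and -1.02), and none kept a difference of 1 relative to its window. CD151 also fell under the threshold without Endo replicate 3 (-0.998). Of 17 integrin genes tested, 5 were higher in VK2 and 1 in Endo (29.4% and 5.88%, beside 10.1% and 10.3% of all genes). Those higher in VK2 included the fibronectin receptor subunit ITGA5 (349.67 against 799 CPM) and ITGB3 (-3.12). ITGB8 was higher in Endo (2.05), and ITGA6, ITGB4 and ITGB1 stayed under the threshold (-0.19, 0.49 and -0.55).

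The clustered protocadherins, cell-surface proteins of which each cell uses a subset of isoforms, formed a mosaic. Of 31 tested, 15 were higher in Endo and 6 in VK2 (48.4% and 19.4%, beside 10.3% and 10.1% of all genes), and 10 were not called. PCDHGB5 read 28.1, 29.2 and 27.7 CPM in Endo and 0.39, 0.153 and 0.305 CPM in VK2, and PCDHA6 3.55, 5.74 and 3.99 CPM in Endo and 0, 0.115 and 0 CPM in VK2. PCDHGA8 and PCDHGA12, from the same cluster on chromosome 5 as PCDHGB5, were reversed: 0.148, 0.403 and 0.129 CPM in Endo against 8.97, 8.86 and 9.67 CPM in VK2 and 0.111, 0.235 and 0.29 CPM in Endo against 8.37, 11.6 and 9.43 CPM in VK2. PCDHGC3 did not differ beyond the threshold (77 against 80.5 CPM, -0.09 ± 0.04). Members of a cluster share their last exons, so isoform counts depend on how shared reads were divided. PCDH10, a protocadherin outside the clusters, was at 0.963, 0.772 and 0.901 CPM in Endo and 0.21, 0.344 and 0.397 CPM in VK2 (1.44 ± 0.31).

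Of 41 cell cycle genes tested, 5 were higher in Endo and 0 in VK2, with a median of 0.46. The Endo share of 12.2% is near that of all genes. CCNE2, a cyclin of S phase entry, read 17, 16.8 and 18.8 CPM in Endo and 2.91, 2.71 and 3.51 CPM in VK2 (2.49 ± 0.1), RRM2, a ribonucleotide reductase subunit, 264 and 90.2 CPM, and MKI67, the proliferation marker, 869.64, 882 and 823 CPM in Endo and 377, 405 and 388 CPM in VK2 (1.11 ± 0.03). Of 26 genes on a list of p53 targets and CDK inhibitors tested, 8 were higher in Endo and 1 in VK2 (30.8% and 3.85%, beside 10.3% and 10.1% of all genes), with a median of 0.79. CDKN2C was at 19.4 against 2.58 CPM, the stress cytokine GDF15 at 69.7 against 23.8 CPM and the death receptor TNFRSF10B at 176 against 68.1 CPM. CDKN1A, p21, differed by 0.63. CDKN1C, p57, was the member higher in VK2 (-2.97 ± 0.17).

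CDKN1C is imprinted, and it lies on chromosome 11 near H19 and IGF2. H19 (ENSG00000130600.22; chromosome 11, 1995166 to 2004552), a maternally expressed non-coding RNA, read 32.5, 30.01 and 30.8 CPM in VK2 and 0 counts in every Endo library (at least 303-fold higher in VK2). IGF2 (chromosome 11, 2129112 to 2158391), its paternally expressed growth factor neighbour, read 3.63, 3.36 and 3.86 CPM in Endo and 56.8, 57.1 and 57 CPM in VK2 (-4 ± 0.06). The window that holds the 3 genes had a median of -1.02, and all 3 lay well below it. MEG3, an imprinted non-coding RNA on chromosome 14, was at 0.0741, 0.0672 and 0.29 CPM in Endo and 14, 11.5 and 12.2 CPM in VK2 (-6.4 ± 0.23), and GRB10 was higher in Endo (81.1 against 18.4 CPM). In all, 6 of 17 imprinted genes tested were higher in VK2 and 2 in Endo (35.3% and 11.8%, beside 10.1% and 10.3% of all genes).

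Of 34 hypoxia and glycolysis genes tested, 7 were higher in VK2 and none in Endo (20.6% and 0%, beside 10.1% and 10.3% of all genes). The glucose transporter SLC2A3 read 0.111, 0.134 and 0.161 CPM in Endo and 32.7, 30.6 and 30.4 CPM in VK2 (-7.82 ± 0.13) and the aldolase ALDOC 1.18, 0.94 and 1.03 CPM in Endo and 53.7, 53.3 and 54.2 CPM in VK2 (-5.7 ± 0.08). LDHA, lactate dehydrogenase A, was at 666 against 1394 CPM (-1.09 ± 0.03), a difference close to the median of its window on chromosome 11 (-1.04).

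Polyamine metabolism is the subject of the study, and 1 of 26 of its genes tested was called in the unexposed lines (3.85%, beside 20.4% of all genes). AZIN2, an antizyme inhibitor, was at 1.18, 1.68 and 1.54 CPM in Endo and 3.75, 3.82 and 3.84 CPM in VK2 (-1.39 ± 0.16). The summed list stood at 3570.2 to 3701 CPM in Endo and 3643 to 3733 CPM in VK2. ODC1, which makes putrescine, and SRM, which makes spermidine, were lower in Endo by less than the threshold (-0.61 ± 0.03 and -0.67 ± 0.04). SAT1, the acetyltransferase that starts polyamine breakdown, and AMD1, which supplies the aminopropyl donor, differed by 0.17 ± 0.03 and -0.13 ± 0.04, and the oxidase SMOX by 0.07 ± 0.07. PAOX was under 1 CPM in all 6 libraries. Of the other genes that the study follows, ID2 was higher in Endo (1.41, 1.61 and 1.58 CPM in Endo against 0.24, 0.267 and 0.336 CPM in VK2, 2.4 ± 0.27), as was KRT13, a keratin of mucosal squamous cells (11.5, 11.7 and 13.7 CPM in Endo against 4.32, 4.77 and 5.46 CPM in VK2, 1.32 ± 0.1), and SNAI1 was not called (0.37 ± 0.16).

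Genes detected in 1 line only were defined as those with at most 3 counts in each library of one line and at least 1 CPM in each library of the other. There were 56 such genes in Endo, 32 of them protein-coding, and 93 in VK2, 65 protein-coding. 17 and 37 of them had no count at all in the other line. Ecto cells expressed 26 of the Endo genes and 26 of the VK2 genes at 1 CPM or more in each library. Homeobox and other developmental regulators were found on both sides. In Endo they included DLX6 (7.93 CPM), TLX3 (7.62 CPM), ZIC2 (2.84 CPM) and GATA2 (2.69 CPM) beside EYA2. In VK2 they included IRX1, IRX2, HOXC10, HOXC13 and FOXC2 (1.25 CPM, at least 12.1-fold higher). In every one of the 7 other conditions 17 of the Endo genes and 35 of the VK2 genes met the same definition again.

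Differences were not spread evenly along the genome. Protein-coding genes were ordered into 290 windows of 10 Mb with at least 10 genes tested, and the median log2 fold change of 219 windows lay within 0.2 of 0. In 12 windows it was -0.5 or lower and in 23 it was 0.5 or higher, and they lay on chromosomes 4, 8, 9, 11, 12, 13, 19, 20 and 22, many of them side by side. On the first 50 Mb of chromosome 11, 217 of 237 genes (91.6%) were lower in Endo and the median was -1.03 (quartiles -1.29 and -0.69). From 60 Mb onward on the same chromosome the median of 507 genes was -0.03. Apart from chromosome 11, chromosome 13 from 30 to 60 Mb had a median of -0.96 over 94 genes. All of chromosome 9 lay above 0, with a median of 0.56 and 471 of 547 genes (86.1%) higher in Endo. Chromosome 19 changed sign within its short arm: the first 10 Mb had a median of 0.88 (201 genes) and the next 10 Mb of -0.52 (243 genes). The distal end of chromosome 22, from 50 Mb, had the highest median, 1.11 over 24 genes, and the window from 50 to 60 Mb of chromosome 13 the lowest, -1.14 over 16 genes.

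The stretches were picked after the window medians were seen, so their values are a description. The same window medians came back in other libraries: all 35 windows past 0.5 kept their sign in each of the 7 other conditions, and the first 50 Mb of chromosome 11 ranged from -1.04 to -0.98 there. Chromosome 9 ranged from 0.55 to 0.62. Against the mean of the Ecto libraries, the first 50 Mb of chromosome 11 had a median of -1.01 in Endo and -0.03 in VK2, and the chromosome 13 stretch 0.09 in Endo and 0.92 in VK2. These values share the Ecto libraries. DNA copy number was not measured.

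Some members of the lowest and the highest window are given as examples. From chromosome 13, WDFY2 read 30.6, 31.3 and 32.1 CPM in Endo and 92.4, 97.1 and 98.5 CPM in VK2, and INTS6, a subunit of the Integrator complex, 36.2, 36.3 and 37.2 CPM in Endo and 79.2, 75.3 and 72.8 CPM in VK2. From chromosome 22, PLXNB2, a semaphorin receptor, read 382, 396 and 374 CPM in Endo and 189, 196 and 196 CPM in VK2, SBF1 246, 264 and 246 CPM in Endo and 117, 127 and 128 CPM in VK2, and LMF2 97.8, 96.2 and 90.2 CPM in Endo and 35.3, 34.4 and 35 CPM in VK2. SBF1 (1 ± 0.04) lay at the threshold and dropped below it without Endo replicate 2 (0.977) or VK2 replicate 1 (0.958). Of the abundant genes named above, EEF2 (1.05) lies in the chromosome 19 window with a median of 0.88 and TPT1 (-1.08) in a chromosome 13 window with -0.96.

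**Figure D4:**
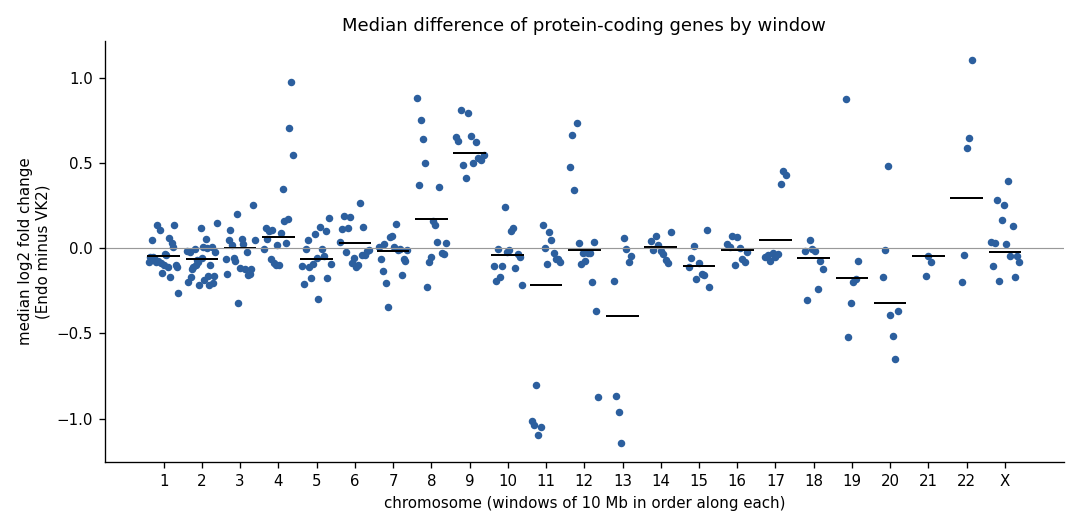
Median log2 fold change (Endo minus VK2) of protein-coding genes in each 10 Mb window, 1 point per window in order along each chromosome, with a bar at the median of the chromosome. Chromosome 9 lies above 0 throughout, and runs of neighbouring windows of chromosomes 11 and 13 lie well below 0.

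The windows past 0.5 held 2140 genes tested, of which 760 were called, beside 3408 of 16676 over all genes (20.4%). Of these calls 655 had the sign of their window and 105 the opposite sign. The sign of a window was set by the fold changes of its own protein-coding genes. A majority with that sign therefore follows from the choice of windows and is a description only. Each fold change was also taken relative to the median of its window, with the adjusted p of the line difference still required to be under 0.05. On that scale 2906 genes differed from their window by at least 1, 1429 above it and 1477 below it. Of the 3361 calls in windows, 2689 were kept. That p-value is against a difference of 0, so the difference from the window was not tested. Counts of 2 lists changed little, with 18 interferon-stimulated genes higher in Endo and 27 matrix genes higher in VK2 on that scale. Others moved more. Antimicrobial genes higher in Endo went from 3 to 0, and those higher in VK2 from 10 to 9. Desmosome and hemidesmosome genes went from 1 in Endo and 2 in VK2 to 0 each, and metalloproteinase and inhibitor genes higher in VK2 from 8 to 10.

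The other conditions gave the same comparison in libraries that the unexposed comparison did not use. The share of genes called was 20.6% in PUT+noGV, 20.4% in SPD+noGV and 20.1% in SPM+noGV, and 22.8%, 21.8%, 23.7% and 19.2% in NT+GV, PUT+GV, SPD+GV and SPM+GV. Of the 3408 calls in NT+noGV, 84.5% were called with the same sign in SPD+noGV, 79.6% in SPM+noGV and 76.1% in PUT+noGV. With bacteria the share was 74.1% in NT+GV, 69% in PUT+GV, 74.7% in SPD+GV and 68% in SPM+GV. In all 7 conditions at once 1589 genes (46.6%) kept their call, 728 higher in Endo and 861 higher in VK2. 17 genes were called with the opposite sign in at least 1 condition. KRT7 ranged from 7.04 to 9.36 over the 7 conditions, PAX8 from 2.26 to 3.94, CLDN1 from 3.03 to 4.75 and KRT14 from -4.47 to -4.07.

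Gene groups kept their balance to different degrees. Matrix genes were higher in VK2 in every condition, 24 to 32 of them called, with list medians between -1.07 and -0.66. Interferon-stimulated genes higher in Endo numbered 20 in NT+noGV, SPD+noGV and SPM+noGV, 15 in PUT+noGV and 13 to 17 in the 4 conditions with GV. IFIT1 stood at a line difference of 1.19 without GV and -0.02 with it, where RSAD2 had 4.66 and 3.01. Cytokine genes called higher in Endo and in VK2 numbered 6 and 5 in NT+noGV, 4 and 12 in PUT+noGV, 5 and 9 in SPD+noGV and 4 and 11 in SPM+noGV. With GV they numbered 11 and 5 in NT, 6 and 8 in PUT, 13 and 5 in SPD and 5 and 9 in SPM. Between 30 and 43 of these genes passed the filter, the split over all genes also varied (2134 and 1734 in NT+GV, 1541 and 2005 in PUT+noGV), and the change between conditions was not tested.

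The line difference itself was tested for a change with GV in the 12 NT libraries of Endo and VK2, as the GV response of Endo minus that of VK2. It was called for 614 of 17791 genes (3.45%), 433 with a positive sign (2.43%) and 181 with a negative one (1.02%). C3, the central complement component, read 0.741, 0.705 and 1.09 CPM in unexposed Endo and 7.71, 7.71 and 7.14 CPM in unexposed VK2, and 44.4, 47.4 and 47.1 CPM in Endo and 42.5, 41.7 and 40.3 CPM in VK2 with GV. TXNIP, an inhibitor of thioredoxin and of glucose uptake, read 5.15, 4.2 and 5.47 CPM in Endo and 10.1, 9.85 and 9.52 CPM in VK2 without GV and 31.8, 36.6 and 33.5 CPM in Endo and 7.75, 6.78 and 7.88 CPM in VK2 with it, so the order of the lines turned around. The lines kept their order for FN1, at 4122 and 9851 CPM without GV and 1609 and 9855 CPM with it.

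**Figure D5:**
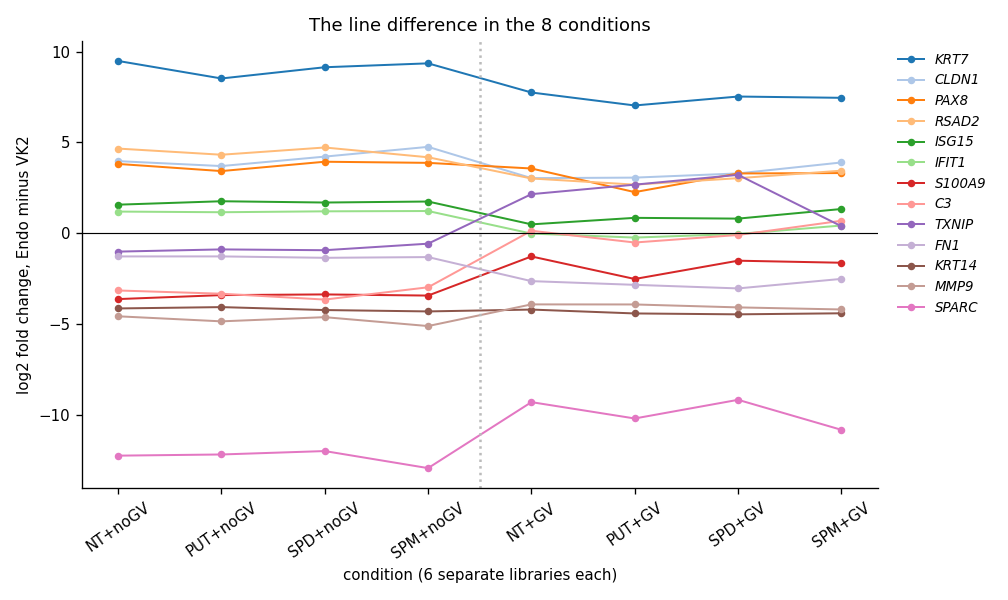
Log2 fold change (Endo minus VK2) of 13 genes in each of the 8 conditions, each from its own 6 libraries, with conditions without GV left of the dotted line. KRT7 and SPARC keep opposite signs throughout, while C3 lies between -3.66 and -2.98 without GV and between -0.52 and 0.68 with it, and TXNIP is below 0 without GV and above 0 with it.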

How the data were processed

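Stranded, ribosomal RNA-depleted total RNA libraries of 3 lines under 8 conditions (72 libraries, 3 per group) were deposited as 1 table. The values are estimated counts per gene that the authors made with Salmon against GENCODE release 44 (GRCh38) and summarised with tximeta, not normalised. All 62266 gene identifiers matched the annotation of release 44. Groups were taken from the sample labels. The main test was edgeR 4.0.16 quasi-likelihood on the 6 libraries (filterByExpr, TMM), Benjamini-Hochberg over all genes tested, R 4.3.3, called at adjusted p under 0.05 with a log2 fold change of 1 or more in size. The filter looks at counts only and 16676 genes passed it. The same fit was made in each of the 7 other conditions, and a 4-group fit tested the line by GV term. Alternatives were DESeq2 1.42.0, other normalisations, filters and thresholds, a replicate block, leaving out libraries and, chosen after window medians were seen, fold changes relative to the window median. Scripts were checked on simulated counts. CPM used effective sizes set over the 72 libraries, and SE is the log2 fold change divided by the square root of F. A gene without counts in a line was given as a lower bound against 3 counts per library, and ratios on few counts with 95% Poisson intervals, all of which cover counting error only. Genes named were the 15 protein-coding genes of largest fold in each direction with a mean of at least 5 CPM, list members that were called or had high CPM, genes the study follows, the 10 of largest CPM difference in each direction, the 10 of smallest p for GV, and members of the most shifted windows. Members of the comparison and the gene lists were chosen with earlier results of these data known. Promoters came from RefSeq (GRCh38.p14), and annotations that share reads (paralogues, histones, protocadherins) are uncertain. Sex-linked and HLA genes and some other genes that these rules name are not reported here.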

Additional observations from a re-analysis of the deposited data

Results flagged for a closer look

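The difference between Endo and VK2 changed with GV exposure in 614 genes, by the test of the line by GV term in the 12 NT libraries (edgeR quasi-likelihood, adjusted p under 0.05 and a change of at least 1 on the log2 scale). The 10 protein-coding genes with the smallest adjusted p are given here, as the GV response of Endo minus that of VK2 with its SE, beside mean CPM. For 6 of them the term was positive. C3 had 3.29 ± 0.14 (adjusted p 4.3e-12) and TXNIP 3.16 ± 0.13 (adjusted p 2.6e-12). S100A9 had 2.35 ± 0.1, with a rise from 4.09 to 67 CPM in Endo and from 49.9 to 160.03 CPM in VK2. PI3 had 1.74 ± 0.08, from 16.6 to 157 CPM in Endo and from 78 to 219.81 CPM in VK2. CLDN4, a claudin, had 1.51 ± 0.08, from 18.8 to 62 CPM in Endo and from 22.8 to 26.3 CPM in VK2. The histone gene H2BC12 had 1.41 ± 0.07, from 49.6 to 158 CPM in Endo and from 40.3 to 48.2 CPM in VK2. The other 4 were negative. HEG1, a mucin-like membrane protein, had -1.78 ± 0.06 (adjusted p 7.9e-13), from 97.1 to 33.7 CPM in Endo and from 79.6 to 94.4 CPM in VK2. JDP2, a bZIP repressor, had -1.85 ± 0.09, from 30.8 to 6.58 CPM in Endo and from 73.5 to 56.4 CPM in VK2. LTBP2, a microfibril-associated protein, had -1.23 ± 0.06, from 165 to 61 CPM in Endo and from 238 to 205 CPM in VK2. FN1 had -1.36 ± 0.07, from 4122 to 1609 CPM in Endo and from 9851 to 9855 CPM in VK2.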

How the results depend on the processing

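The count of genes called between Endo and VK2 stayed within 1.5 times its value of 3408 under other normalisations, DESeq2 (3309), no filter on low counts (4684) and all 72 libraries in one fit (3412), and when libraries were left out one at a time (3578 to 3614; 1775 to 1877 higher in Endo and 1726 to 1823 higher in VK2). It depended on the fold threshold: at a log2 fold change of 2 it was 1296 (570 and 726), and with no threshold 11918 (5941 and 5977). In the other conditions the counts at 2 and with no threshold were 1357 and 12225 in PUT+noGV, 1267 and 12078 in SPD+noGV, 1241 and 12062 in SPM+noGV, 1495 and 12166 in NT+GV, 1421 and 12693 in PUT+GV, 1568 and 12857 in SPD+GV and 1195 and 11068 in SPM+GV, and leaving out libraries gave 3684 to 3756, 3479 to 3572, 3422 to 3547, 4002 to 4177, 4137 to 4236, 4366 to 4486 and 3387 to 3418. For the interaction with GV they were 162 and 5524 (547 to 644 without single libraries), and for the genes called alike in all 8 conditions 607 and 6372. Leaving out a replicate number from both lines in every condition gave 1501 to 1561 such genes. Genes detected in 1 line numbered 136 in Endo and 198 in VK2 with up to 10 counts allowed in the other, 11 and 30 with at least 5 CPM required, and 58 to 72 and 95 to 113 without single libraries. Windows of 20 Mb gave 7 at or below -0.5 and 13 at or above 0.5, and windows of 10 Mb without single libraries 11 to 12 and 22 to 26. Same-numbered deviations of the 2 lines correlated at 0.234, 0.214 and -0.00845, against -0.336 to 0.145 between different numbers. Replicates 1 and 2 lay above that range and replicate 3 within it, so whether the numbers pair the samples is not settled. A fit with the replicate block called 3417 genes (1725 and 1692), close to the main count. Of 104 counts of list members called in a direction, 82 stayed equal to or within 1.5 times their main value under all alternatives tried for them. Of the named genes, SBF1, C1R, CD151 and TXNIP lie at the fold threshold and fell below it under some alternatives. C1R stood at 0.93 without Endo replicate 3 and 0.98 without VK2 replicate 3, CD151 at -0.98 with library totals only and -0.998 without Endo replicate 3, TXNIP at -0.98 with library totals only and down to -0.90 without Endo replicate 2, and SBF1 between 0.958 and 0.998 in 6 alternatives. PAOX, under 1 CPM, passed the thresholds in 5 alternatives (-1.03 to -1.40), and OAS1, near 0, ranged from -0.0331 without VK2 replicate 2 to 0.0911 without VK2 replicate 3. Genes at 3 counts per library or fewer cannot be told from absent at this depth, and counting limits do not cover differences between cultures.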

Other observations

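Late differentiation genes of the squamous lineage differed in both directions, although neither line was grown to stratify. Of 29 cornified envelope and differentiation genes tested, 10 were higher in VK2 and 4 in Endo (34.5% and 13.8%, beside 10.1% and 10.3% of all genes). In VK2, LCE3D, a late envelope protein, read 14.6, 13.4 and 12 CPM against 1.3, 1.34 and 1.06 CPM in Endo (-3.46 ± 0.12), and CDSN, corneodesmosin, 4.5, 5.42 and 4.18 CPM in VK2 against 0.63, 0.672 and 0.29 CPM in Endo (-3.17 ± 0.23). In Endo, RHCG, an ammonium transporter of squamous mucosa, read 7.7, 8.56 and 7.98 CPM against 0.33, 0.191 and 0.122 CPM in VK2 (5.17 ± 0.2). ABCA12, a lipid transporter of the barrier, was at 91.1, 90.04 and 86 CPM in Endo against 23.4, 21.9 and 21.9 CPM in VK2 (1.96 ± 0.04), and TGM1, the transglutaminase that cross-links the envelope, at 109, 119 and 112 CPM in Endo against 38.7, 38 and 39.6 CPM in VK2 (1.53 ± 0.04). Involucrin (IVL) differed by 0.05. Replication-dependent histone genes have transcripts that lack a poly(A) tail and were kept by the ribosomal depletion. Of 24 tested, 8 were higher in Endo and 0 in VK2 (33.3% and 0%, beside 10.3% and 10.1% of all genes). This count varied with the condition, from 0 of 43 higher in Endo in SPM+GV to 34 of 38 in SPD+GV. In all 8 conditions 0 members kept their call. H2BC5 was at 19.8, 18.5 and 19.2 CPM in Endo and 6.21, 6.61 and 7.17 CPM in VK2 (1.5 ± 0.08), but histone genes share near-identical coding sequence and single members are uncertain.

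Growth factor and lipid mediator genes that differed were mostly higher in VK2. Of 34 receptor tyrosine kinase and ligand genes, 10 were higher in VK2 and 2 in Endo (29.4% and 5.88%, beside 10.1% and 10.3% of all genes). The EGFR ligand EREG read 29.3, 25.7 and 31.7 CPM in Endo and 118, 103 and 103 CPM in VK2 (-1.92 ± 0.09), VEGFA, the angiogenic growth factor, 415, 378 and 408 CPM in Endo and 1021, 899 and 927 CPM in VK2 (-1.27 ± 0.06), and LRIG1, which restrains EGFR, 0.555, 0.739 and 0.579 CPM in Endo and 6.3, 6.76 and 5.83 CPM in VK2 (-3.34 ± 0.16). Of 15 prostaglandin genes tested, 4 were higher in VK2 and 1 in Endo (26.7% and 6.67%), PTGS2 (cyclooxygenase 2, -1.58 ± 0.07) and PTGES (prostaglandin E synthase, -1.07 ± 0.03) on the VK2 side with the transporter SLCO2A1. The receptor PTGER4 was the member higher in Endo (26.5, 24.9 and 27 CPM in Endo against 5.76, 6.61 and 5.8 CPM in VK2, 2.09 ± 0.07). Of 23 BMP, TGF-beta and ID genes tested, 6 were higher in Endo and 4 in VK2 (26.1% and 17.4%), around a median of 0.06. The ligand BMP7 read 9.11, 11.9 and 10.6 CPM in Endo and 0.3, 0.535 and 0.519 CPM in VK2 (4.53 ± 0.17), its antagonist GREM1 0.555, 0.537 and 0.74 CPM in Endo and 24.1, 23.9 and 22.9 CPM in VK2 (-5.28 ± 0.11), and the target ID3 41.2, 47.4 and 47.6 CPM in Endo and 12.1, 11.2 and 11.7 CPM in VK2 (1.93 ± 0.06). Of 16 inflammasome and gasdermin genes tested, 5 were higher in VK2 and 2 in Endo (31.2% and 12.5%, beside 10.1% and 10.3% of all genes), and 9 were not called. On the VK2 side, the inflammasome sensor NLRP3 was at 0, 0.134 and 0.0322 CPM in Endo and 1.05, 1.22 and 1.13 CPM in VK2 (-4.24 ± 0.48), and the pore protein GSDMA at 2.44, 3.02 and 1.96 CPM in Endo and 18.9, 16.7 and 17.3 CPM in VK2 (-2.86 ± 0.11). ALDH1A3, which makes retinoic acid, was higher in Endo (737, 783 and 760.01 CPM in Endo against 274, 289.87 and 273 CPM in VK2, 1.42 ± 0.03), while the related ALDH1A2 was lower (-1.81 ± 0.13). The errors are SE of the edgeR fit with 3 libraries per line.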
